A study of Mus musculus with 2 samples.

Results

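The genes described here encode 10 antioxidant enzymes of mouse fetal liver: the superoxide dismutases Sod1 and Sod2, catalase (Cat), the glutathione peroxidases Gpx1 and Gpx4, and the peroxiredoxins Prdx1, Prdx2, Prdx3, Prdx5 and Prdx6. They were chosen by name and matched by symbol to the Ensembl identifiers of the gene tables, where all 10 were found among 43346 gene rows. The RNA came from liver of C57BL/6J embryos at embryonic day 14.5, taken from littermates of mixed sex, with no genetic change or treatment named in the labels. The series holds 1 group of 2 biological replicates, so the data give the level of each gene and the difference between the libraries, and no contrast between conditions. How many litters or embryos went into a library is not given in the sources used here, and any p-value below measures the difference of these 2 libraries alone.

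Superoxide dismutases turn superoxide, a by-product of respiration and of haemoglobin oxidation, into hydrogen peroxide and oxygen. Hydrogen peroxide is then removed by catalase in peroxisomes, by glutathione peroxidases with glutathione as reductant, and by peroxiredoxins, which mostly use thioredoxin. The fetal liver makes red cells, which carry large amounts of haem iron and oxygen, and it also holds the developing hepatocytes, which are rich in catalase and mitochondria in the adult.

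Replicate 2 had 65640933 and replicate 1 had 102720920 estimated counts assigned to genes. A gene with a count of 0 could still stand at 0.0457 CPM (counts relative to the library total) in replicate 2 and at 0.0292 CPM in replicate 1. These limits, like the intervals below, cover counting error only. Of the marker genes, 10 of 10 erythroid and 8 of 8 hepatocyte genes reached 1 TPM in both libraries, and 1 of 10 genes of other organs did, Cpa1. TPM, the unit of abundance in the deposited tables, corrects for transcript length and has the same total in both libraries. Globin transcripts took 57.5% of the TPM in replicate 2 and 48.5% in replicate 1. The mean fragment, read from the deposited effective lengths, was 303 nt in replicate 2 and 214 nt in replicate 1. In whole liver, fewer cells of a type and less RNA per cell cannot be told apart.

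All 10 enzyme genes were well expressed, and their levels covered a wide range. Gpx1 stood highest with a mean of 3305 TPM, at rank 15 of all genes in replicate 2 and rank 14 in replicate 1. Sod2 was lowest at 17.7 TPM, which still lay above 85.0% of the 22233 genes with a count. Between them came Prdx2, Sod1, Gpx4, Prdx1, Prdx3, Prdx6, Cat and Prdx5, in falling order of mean TPM. The libraries' ranges did not overlap for 7 of the 9 pairs of neighbours in this order. The exceptions were Prdx1 with Prdx3, and Prdx6 with Cat, whose order the 2 libraries do not settle.

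**Figure D1:**
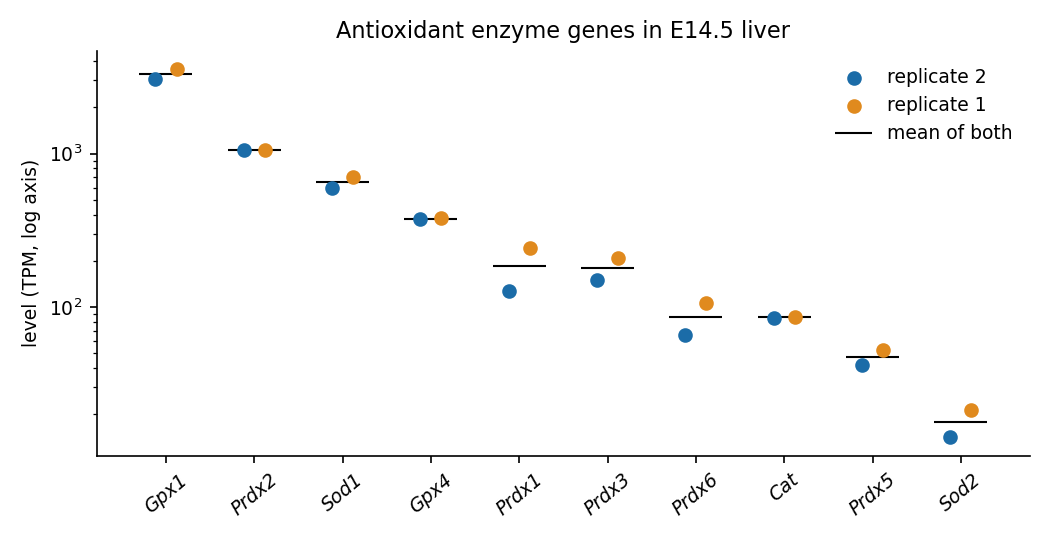
Level of each antioxidant enzyme gene in TPM (log axis), with 1 point for replicate 2 and 1 for replicate 1, and a line at the mean. The genes fall from Gpx1 at 3305 TPM to Sod2 at 17.7 TPM, and by ratio the libraries lie furthest apart for Prdx1.

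Together the 10 genes reached 5569 TPM in replicate 2 and 6409 TPM in replicate 1. This was 0.557% of all TPM in replicate 2 and 0.641% in replicate 1. Gpx1 alone made up 54.9% of the sum in replicate 2 and 55.5% in replicate 1. In CPM, with no length correction, Gpx1 averaged 44.2% of the sum. The globin share moved with the difference in summed TPM in the opposite direction. With globin genes left out of the scaling, the sum was 13106 TPM in replicate 2 and 12447 TPM in replicate 1, so the library with the higher sum changed. Summed levels of the erythroid markers, which are mostly globin, were 576822 TPM in replicate 2 and 486900 TPM in replicate 1. Those of the hepatocyte markers were 18688 TPM in replicate 2 and 23315 TPM in replicate 1. The part of cell composition in the enzymes' levels was not tested.

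None of the 10 was called, that is, passed an adjusted p of 0.05 with at least a 2-fold difference in the exact binomial test with Benjamini-Hochberg adjustment over all genes, against a background of 8.33% of 17906 genes tested. In each direction the background was 3.8% higher and 4.53% lower in replicate 2, and among genes averaging 10 TPM or more it was 3.52% in both directions together. With no fold minimum 9 of 10 passed, 3 higher and 6 lower in replicate 2, against a background of 60.8% of all tested genes and 86.9% of genes with at least 10 TPM. At these depths small differences pass the test for most genes, and the members' count is near that of genes of like level. The median size of the members' log2 ratio was 0.24, against 0.26 over genes with at least 10 TPM. Their median log2 ratio of replicate 2 over replicate 1 was -0.15, against -0.02 over genes with at least 10 TPM.

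The largest count difference was that of Sod2, with a log2 ratio of -0.32 (95% interval -0.37 to -0.27), so that replicate 2 had 0.799 times the level of replicate 1. Prdx5, Prdx3, Prdx6 and Sod1 followed with log2 ratios of -0.28, -0.28, -0.27 and -0.26. Cat differed most in the other direction, with a log2 ratio of 0.22 (95% interval 0.19 to 0.25). Prdx2 and Gpx4 stood at 0.11 and 0.09, and Gpx1 at -0.05. Prdx1 alone missed the threshold, with a log2 ratio of 0.02 (95% interval -0.0025 to 0.044) and an adjusted p of 0.119 in the exact binomial test.

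The deposited TPM gave larger differences than the counts for some of the same genes. Prdx1 had a log2 TPM ratio of -0.93 beside a count ratio near 0, and Prdx6 had -0.69 on TPM beside -0.27 on counts. These were the 2 members whose TPM differed at least 1.5-fold, against a background of 22.4% of genes with at least 10 TPM. Sod2 fell just short, at 1.499-fold. For Prdx1 the mean transcript length that the authors' table assigns to the gene moved with the difference: it was 2247 nt in replicate 2 and 1450 nt in replicate 1. For Prdx6 it was 1342 nt in replicate 2 and 1170 nt in replicate 1, and it was equal in both libraries for Sod1, Sod2, Cat and Prdx3.

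**Figure D2:**
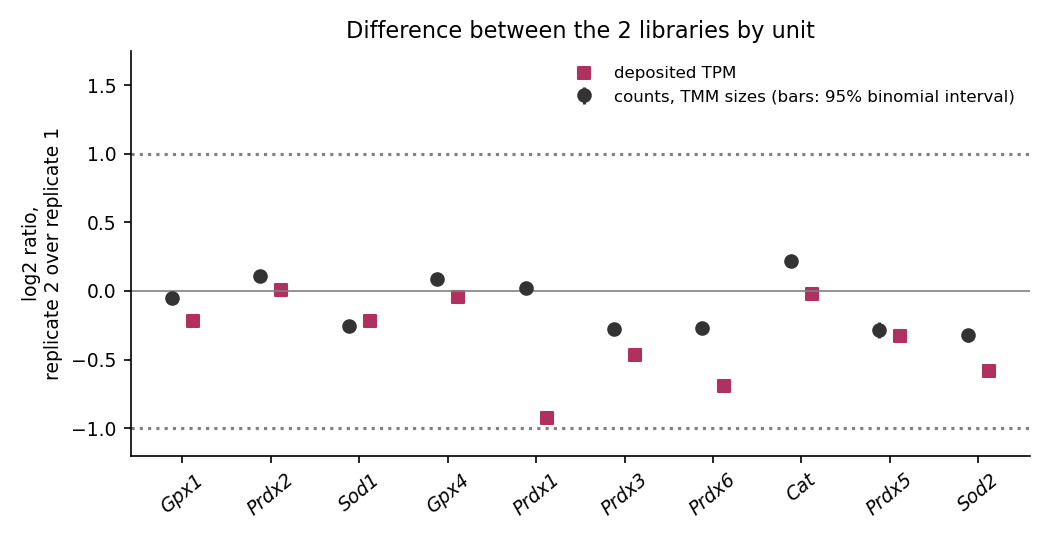
Log2 ratio of replicate 2 over replicate 1 for each gene, from counts with TMM library sizes (circles, bars for the 95% binomial interval) and from the deposited TPM (squares), with dotted lines at 2-fold. No circle reaches a 2-fold difference, and the 2 measures lie furthest apart for Prdx1, at 0.02 on counts and -0.93 on TPM.

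Of the superoxide dismutases, the cytosolic copper-zinc enzyme gene Sod1 was far higher than the mitochondrial manganese enzyme gene Sod2. Sod1 (chr16:90220754-90226329, plus strand, GRCm38) had 600 TPM in replicate 2 and 699 TPM in replicate 1. Sod2 (chr17:13006846-13040063, plus strand) had 14.1 TPM in replicate 2 and 21.2 TPM in replicate 1. Sod1 was therefore 42.4 times Sod2 in replicate 2 and 33.0 times in replicate 1, a mean log2 ratio of 5.23 ± 0.26 (SD, n = 2). An exact sign test over 2 libraries cannot go below p = 0.5, so none is given for this or the other ratios within a family. The ratio rests on length scaling, since the only transcript listed for Sod1 is 646 nt long and that of Sod2 is 3824 nt. In CPM, with no length correction, the mean log2 ratio of Sod1 over Sod2 was 2.02.

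Reads over splice junctions, which the authors counted on the mm9 assembly, gave Sod2 a higher place than its TPM did. The sources name no replicate for these reads, which are taken throughout as both libraries together. A junction read count per intron needs no length scaling. Sod1 had 20667, 19958 and 14735 reads over its last 3 introns, and Sod2 had between 2027 and 2826 over its 4 introns. The first annotated intron of Sod1 (chr16:90221175-90223024 in mm9) held 0 reads. A junction of the same length of 1850 nt that lay 3 bases before it held 8479 reads (95% Poisson interval 8299 to 8661). Part of Sod1 lies opposite Scaf4 over 650 nt, and the sources used here do not say whether the gene counts used the strand of the reads.

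Catalase, the haem enzyme of peroxisomes that splits hydrogen peroxide, had 85.1 TPM in replicate 2 and 86.4 TPM in replicate 1, a ratio of 0.985 that only Prdx2 brought closer to 1 among the members. Its gene (chr2:103453849-103485160, minus strand) has 2 listed transcripts, of which Cat-201 took 100% of the abundance in both libraries. Cat-202 was listed at 0 in both, and the mm9 intron that only Cat-202 uses held 0 reads. The 12 other introns of Cat held between 1591 and 6954 reads. On counts Cat was the member with the largest ratio in favour of replicate 2, yet its TPM in replicate 2 was slightly below that in replicate 1.

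The glutathione peroxidases Gpx1 and Gpx4 are selenoproteins: each carries a selenocysteine, inserted at an in-frame TGA codon that would otherwise end translation. The annotation marks this codon at chr9:108339451-108339453 in exon 1 of Gpx1-201 and at chr10:80054737-80054739 in exon 3 of Gpx4-202. The coding bases around it are shown 5′ to 3′ with the selenocysteine codon in capitals, since it is the active-site codon that both genes share, and in both the next codon is ggc. Transcript sequences here are those of GENCODE M21, on GRCm38.
Gpx1-201: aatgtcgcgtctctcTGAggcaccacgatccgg
Gpx4-202: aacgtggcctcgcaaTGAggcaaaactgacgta

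Gpx1 (chr9:108338903-108340343, plus strand), the general hydrogen peroxide reductase of cytosol and mitochondria, had 3055 TPM in replicate 2 and 3555 TPM in replicate 1. Gpx4 (chr10:80047166-80056439, plus strand), which reduces lipid hydroperoxides within membranes, had 372 TPM in replicate 2 and 383 TPM in replicate 1. Gpx1 was thus 8.21 times Gpx4 in replicate 2 and 9.29 times in replicate 1, a mean log2 ratio of 3.13 ± 0.13 (SD, n = 2). Both genes differed between the libraries by less than the distance between them.

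The abundance of Gpx1 was divided between 2 transcripts in the deposited tables. Shares of a gene's abundance are shares of TPM, which scale a transcript's counts by its length, so short transcripts weigh more in them than in the counts. Gpx1-204, of 653 nt, took 50.1% in replicate 2 and 58.7% in replicate 1. Gpx1-201, of 1072 nt, took 49.2% in replicate 2 and 40.7% in replicate 1. Of the expected counts Gpx1-204 took 31.5% in replicate 2 and 42.2% in replicate 1, and Gpx1-201 led both libraries with 67.9% in replicate 2 and 57.1% in replicate 1. The selenocysteine codon is annotated in Gpx1-201 alone, although all 4 listed Gpx1 transcripts contain the bases. Gpx1-204 has an intron of 104 nt that Gpx1-201 lacks, and 37 junction reads matched it (95% Poisson interval 26.1 to 51.0), against 120065 over the intron of 218 nt that follows. The junction count of the intron that defines Gpx1-204 was therefore 0.0308% of that of the next one, beside these shares of Gpx1-204.

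Gpx4 has transcripts with different first exons, known to give the mitochondrial and cytosolic forms from one and the nuclear form of sperm from another. Gpx4-202 took 98.2% of the abundance in replicate 2 and 94.1% in replicate 1, and Gpx4-207, which starts later, took 0.64% in replicate 2 and 4.67% in replicate 1. Gpx4-201, with the other first exon, took 0.03% in replicate 2 and 0.14% in replicate 1. In the mm9 transcript table Gpx4-202 also led, with 68.9%, and Gpx4-204 and Gpx4-203 took 16.8% and 11.5%. The joins of these first exons to the shared second exon are shown with the last bases of the first exon in capitals, 15 bases on each side, because the junction reads tell them apart.
Gpx4-202: CTGGCAGGCACCATGtgtgcatcccgcgat
Gpx4-201: GAGTTCCTGGGCTTGtgtgcatcccgcgat

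The first of these joins (intron chr10:80053716-80054513) held 3112 reads in the mm9 junctions and the second (intron chr10:80054301-80054513) held 4 (95% Poisson interval 1.1 to 10.2). These introns are given on GRCm38, and their mm9 reads were found through the transcript's identifier and the intron's length. For these 2 transcripts the junction reads and the shares gave the same order. Across the other annotated introns of Gpx4-202 the reads were uneven, between 94 and 3332. The lowest count belonged to the intron in front of an exon of 25 nt. Introns used by Gpx4-204 and Gpx4-205 alone at their 5′ ends held 0 reads.

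Prdx2 and Prdx1, the cytosolic peroxiredoxins that are reduced by thioredoxin, were the highest 2 of the peroxiredoxins by mean TPM, although Prdx1 and Prdx3 were not separated. Prdx2 (chr8:84969587-84974834, plus strand), the main peroxiredoxin of red cells, had 1057 TPM in replicate 2 and 1055 TPM in replicate 1. In TPM this was the closest agreement of any member. With globin genes left out of the scaling, Prdx2 had 2488 TPM in replicate 2 and 2049 TPM in replicate 1. On counts Prdx1, Gpx1 and Gpx4 were closer to level than Prdx2. Prdx1 (chr4:116685544-116700822, plus strand) had 127.6 TPM in replicate 2 and 242.7 TPM in replicate 1. The log2 ratio of Prdx2 over Prdx1 was 3.05 in replicate 2 and 2.12 in replicate 1, a mean of 2.59 ± 0.66 (SD, n = 2). This was the widest spread of the 3 ratios within a family.

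The TPM difference of Prdx1 lay in its short transcripts. Prdx1-204, of 2294 nt, had 123.9 TPM in replicate 2 and 120.8 TPM in replicate 1. Prdx1-205, of 611 nt, had 1.84 TPM in replicate 2 and 105.3 TPM in replicate 1, and Prdx1-201, of 636 nt, had 0.72 TPM in replicate 2 and 15.3 TPM in replicate 1. As shares of the gene, Prdx1-204 took 97.2% in replicate 2 and 49.8% in replicate 1, and Prdx1-205 took 1.44% in replicate 2 and 43.4% in replicate 1. Of the expected counts Prdx1-204 took 99.5% in replicate 2 and 83.7% in replicate 1, and Prdx1-205 took 0.23% in replicate 2 and 13.9% in replicate 1. In TPM the main transcript was thus level between the libraries while its share was not. On counts it was the gene as a whole that was near level, with a log2 ratio of 0.02. The first joins of the 2 transcripts are shown with the first bases of the second exon in capitals, since only these separate them at this end.
Prdx1-204: tgtggctcgaccctgCTGATAGCAAGATGT
Prdx1-205: tgtggctcgaccctgGGTTTACTTTTTTTT

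The join of Prdx1-204 (intron chr4:116685661-116687406, shared with Prdx1-206) held 19085 junction reads. That of Prdx1-205 (intron chr4:116685661-116687377) held 8 (95% Poisson interval 3.5 to 15.8), or 0.0419% of the pair. The internal introns that Prdx1-204 shares with other transcripts held between 8770 and 16214 reads. The junction reads thus gave Prdx1-205 a far smaller part than either share in replicate 1. In the mm9 transcript table Prdx1-205 took 2.19%, Prdx1-204 54.0% and the other short transcript, Prdx1-201, 42.1%. No replicate is named for the junction reads, so how far they cover replicate 1 is not known. The part of fragment length in the shares was not tested.

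Prdx2 was divided mainly among 4 of its 8 listed transcripts. Prdx2-207, which the annotation classes as retaining an intron, led in replicate 2 with 42.3% and took 25.8% in replicate 1. Prdx2-201, a coding transcript, took 28.1% in replicate 2 and led in replicate 1 with 36.8%. Prdx2-208 stayed at 18.8% in replicate 2 and 18.7% in replicate 1, and Prdx2-203 took 8.93% in replicate 2 and 11.8% in replicate 1. By expected counts Prdx2-201 led in both libraries, with 36.6% in replicate 2 and 45.1% in replicate 1, and Prdx2-207 took 31.7% in replicate 2 and 19.2% in replicate 1. In the mm9 transcript table neither led: Prdx2-205 and Prdx2-208 took 32.2% and 31.9%, Prdx2-201 16.3% and Prdx2-207 11.2%. The split of Prdx2 among transcripts therefore depended on the table and the scale. Coding transcripts together held 56.9% of the TPM of Prdx2 in replicate 2 and 68.3% in replicate 1. The last intron, inside which Prdx2-207 ends, held 43025 junction reads, within the range of 32014 to 60419 over the main introns before it. The alternative first splice of Prdx2-203 held 7663 reads, against 60191 for that of Prdx2-201. Prdx2 overlaps Rnaseh2a over 181 nt and Junb over 351 nt on the opposite strand.

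Prdx3 and Prdx5 were lower than Prdx2 in both libraries, and Prdx3 was not separated from Prdx1. Prdx3 (chr19:60864051-60874556, minus strand), the mitochondrial peroxiredoxin, had 150.6 TPM in replicate 2 and 208.4 TPM in replicate 1, all from Prdx3-201. Its 6 introns held between 4646 and 10790 junction reads. Prdx5 (chr19:6906697-6910106, minus strand), which acts in mitochondria, peroxisomes and cytosol, had 41.6 TPM in replicate 2 and 52.1 TPM in replicate 1. Prdx5-201 took 70.5% of it in replicate 2 and 82.3% in replicate 1, and Prdx5-203 took 28.0% in replicate 2 and 15.3% in replicate 1. In the mm9 transcript table Prdx5-204, listed at 0 in both mm10 tables, led with 34.1%, ahead of Prdx5-202 with 29.6% and Prdx5-201 with 25.3%. The mm9 intron that only Prdx5-204 uses held 0 junction reads, however. The introns that Prdx5-201 and Prdx5-203 share within its span held 1995 and 1651 reads. Prdx5 overlaps Trmt112 over 409 nt on the opposite strand. Prdx3 was higher than Prdx5 in both libraries.

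Prdx6 (chr1:161240112-161251219, minus strand) differs from the other peroxiredoxins in using glutathione and in having phospholipase activity as well. It had 65.6 TPM in replicate 2 and 105.9 TPM in replicate 1. Its leading transcript by TPM was not the same in the 2 libraries. Prdx6-207, of 913 nt and without a coding class in the annotation, took 50.8% in replicate 2 and 5.59% in replicate 1. Prdx6-204, of 603 nt and of the same class, was listed at 0 in replicate 2, where the upper bound of the authors' interval was 0.746 TPM, and had 45.1 TPM in replicate 1, or 42.5%. Prdx6-202, the main coding transcript, took 21.8% in replicate 2 and 17.8% in replicate 1. Prdx6-208, classed as a target of nonsense-mediated decay, took 22.4% in replicate 2 and 28.1% in replicate 1. Coding transcripts together held 25.2% of the TPM of Prdx6 in replicate 2 and 22.5% in replicate 1, and 45.9% of its expected counts in replicate 2 and 44.2% in replicate 1. By expected counts Prdx6-202 led in both libraries, with 43.7% in replicate 2 and 40.5% in replicate 1. Prdx6-207 took 29.8% of them in replicate 2 and 4.09% in replicate 1, and Prdx6-204 was listed at 0 in replicate 2 and took 17.3% in replicate 1. In the mm9 transcript table Prdx6-207 and Prdx6-202 took 47.7% and 45.5%.

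These transcripts of Prdx6 differ in the first exon and share the second. Their first joins are shown with the last bases of the first exon in capitals, because they mark the transcripts between which the shares moved.
Prdx6-202: TTTCCTGGGAGATTCatggggcattctctt
Prdx6-207: GCGTTGCCCTGCCAGatggggcattctctt
Prdx6-204: AAACTACGGTGCCAAatggggcattctctt

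The junction reads stood almost wholly on the coding transcript. The join of Prdx6-202 (intron chr1:161247414-161251021) held 1348 reads, that of Prdx6-207 (intron chr1:161247414-161250993) held 5 and that of Prdx6-204 (intron chr1:161247414-161250444) held 1. The 95% Poisson intervals were 1277 to 1422, 1.6 to 11.7 and 0.025 to 5.6. Prdx6-201, the other coding transcript, has an extra exon whose introns held 120 and 58 reads. The long intron of Prdx6-208, which skips the second exon, held 40 reads. The 3 introns further 3′ that most transcripts share held between 2572 and 3444 reads, all above the first join of Prdx6-202. The coding transcript Prdx6-202 thus led by junction reads and by expected counts, but not by TPM in either library.

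**Figure D3:**
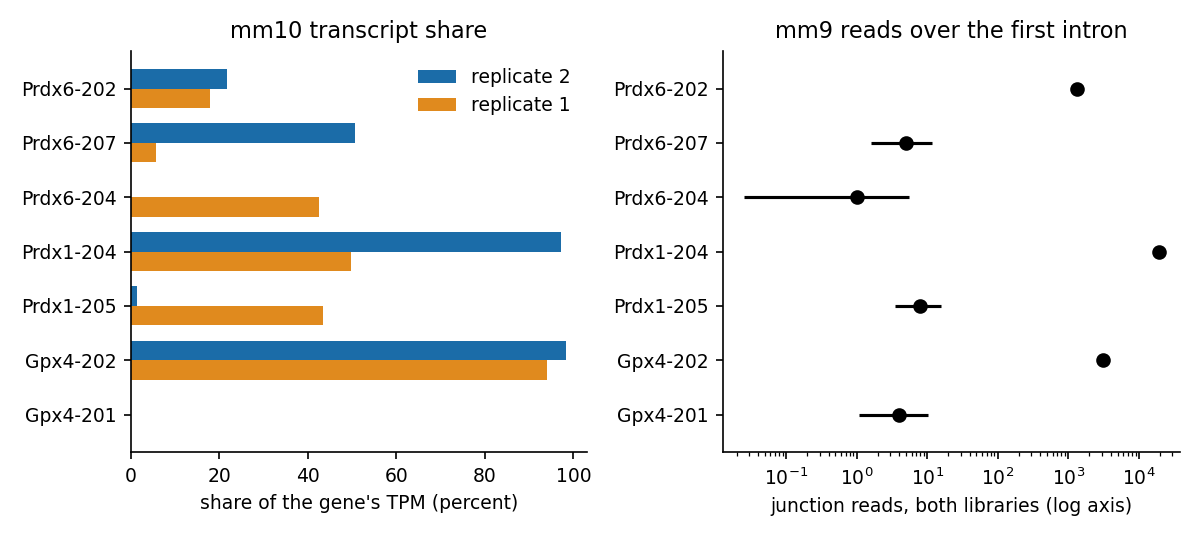
Left, share of the gene's TPM in percent for transcripts of Prdx6, Prdx1 and Gpx4 in replicate 2 and replicate 1. Right, reads over the first intron of the same transcripts on mm9, taken as both libraries together since no replicate is named (log axis, bars for the 95% Poisson interval). Prdx6-207, Prdx6-204 and Prdx1-205 reach shares of over 40% in 1 library and have 5, 1 and 8 reads.

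Between the libraries, the transcript shares of some members moved and those of others did not. Of the 7 members with at least 2 transcripts, the leading transcript by TPM differed between the libraries for 2, Prdx2 and Prdx6, against a background of 12% of 3799 genes with several transcripts and at least 10 TPM. By expected counts, a comparison chosen after seeing the data, it differed for 0 of the 7, against a background of 7.63%. A share of TPM moved by at least 40 points for 2 of 7, Prdx1 by 47.4 points and Prdx6 by 45.2 points, against a background of 1.95%. The limit of 40 points was not part of the planned comparisons and lies just under both moves, so this contrast is a description only. The median of the largest move was 6.49 points over the background genes. Gpx4 and Cat lay below that median, with moves of 4.16 and 0 points, and Gpx1 at 8.57, Prdx5 at 12.7 and Prdx2 at 16.4 points lay above it. For 8 of the 10 members the leading transcript held at least 50% of the abundance on average, and the exceptions were Prdx2 and Prdx6.

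**Figure D4:**
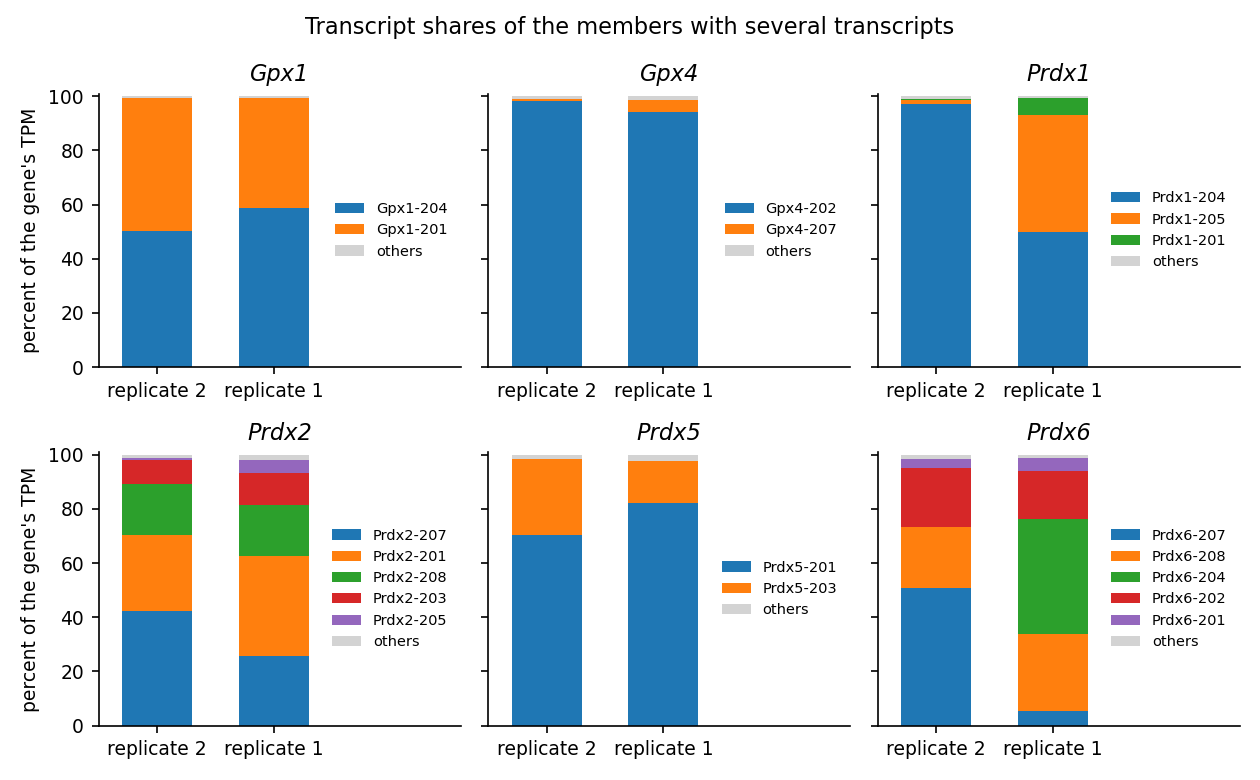
Percent of the gene's TPM taken by each transcript in replicate 2 (left bar) and replicate 1 (right bar), for the members with more than 1 transcript in use; transcripts under 3% in both are grouped as others. In these mm10 tables Gpx4 is nearly all Gpx4-202 in both libraries, whereas the bars of Prdx1 and Prdx6 differ between the libraries.

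The authors' second set of tables, on mm9 with Ensembl models, gave the members in RPKM, which scales reads by model length and library size. Gpx1 and Prdx2 led there too, with means of 629 and 238 RPKM. Next came Prdx1 at 52.5, Sod1 at 48.8, Prdx3 at 40.2, Cat at 25.7, Prdx6 at 18.4, Gpx4 at 16.2, Prdx5 at 8.83 and Sod2 at 4.71 RPKM. Gpx4 and Sod1 were the members that stood lower in mm9 than in mm10. Over 4961 genes with at least 10 TPM, the median log2 ratio of mm9 RPKM to mm10 TPM was -1.99. The other 8 members lay between -0.42 and 0.25 of it, Sod1 lay 3.35-fold below it and Gpx4 5.87-fold below it. A ratio below that of Sod1 was seen for 3.31% of these genes, and one below that of Gpx4 for 1.71%.

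The members with the largest shortfall in mm9 are also those most covered by copies. At 95% identity or more over at least 100 nt, other annotated genes matched 80.9% of Gpx4-202 and 72.5% of Sod1-201. The copies were processed pseudogenes, which are intronless copies of the spliced RNA: Gpx4-ps2 matched Gpx4 at 99.7% over 762 nt, and Gm8566 matched Sod1 at 97.8% over 465 nt. Gpx4-ps2 is listed in neither set of gene tables, so it has no level here. Gm8566 had 18.1 RPKM in mm9, against 0.8 TPM in replicate 2 and 1.86 TPM in replicate 1 in the mm10 tables. Prdx2 was covered over 60.2%, by the opposite-strand neighbours and by the pseudogene Tdpx-ps1, which had 25.1 RPKM in mm9, against 0.76 TPM in replicate 2 and 3.59 TPM in replicate 1. Prdx5 was covered over 32.4%, by its neighbour Trmt112, Prdx1 over 26.0% and Sod2 over 6.16%. For Prdx3, Cat and Prdx6 no such copy was found. None was found for Gpx1 either, but its query was Gpx1-204, of 653 nt, and Gpx1-201 was not searched. How reads were shared between gene and copy in either set was not tested, so levels of Gpx4, Sod1 and Prdx2 carry that uncertainty.

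Median junction reads per intron gave another ordering, for which introns with at least 1% of the gene's highest count were used. Gpx1, Prdx2, Sod1, Prdx1, Prdx3 and Cat took the top 6 places, with 120065, 42166, 19958, 13932, 7416 and 3300 reads. Sod2, Prdx5, Prdx6 and Gpx4 followed closely, at 2237, 1995, 1960 and 1897 reads. Per TPM of the mm10 mean, Gpx4 had the fewest junction reads of the members, 5.03, and Sod2 the most, 127. The other 8 had between 22.8 and 75.3.

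**Figure D5:**
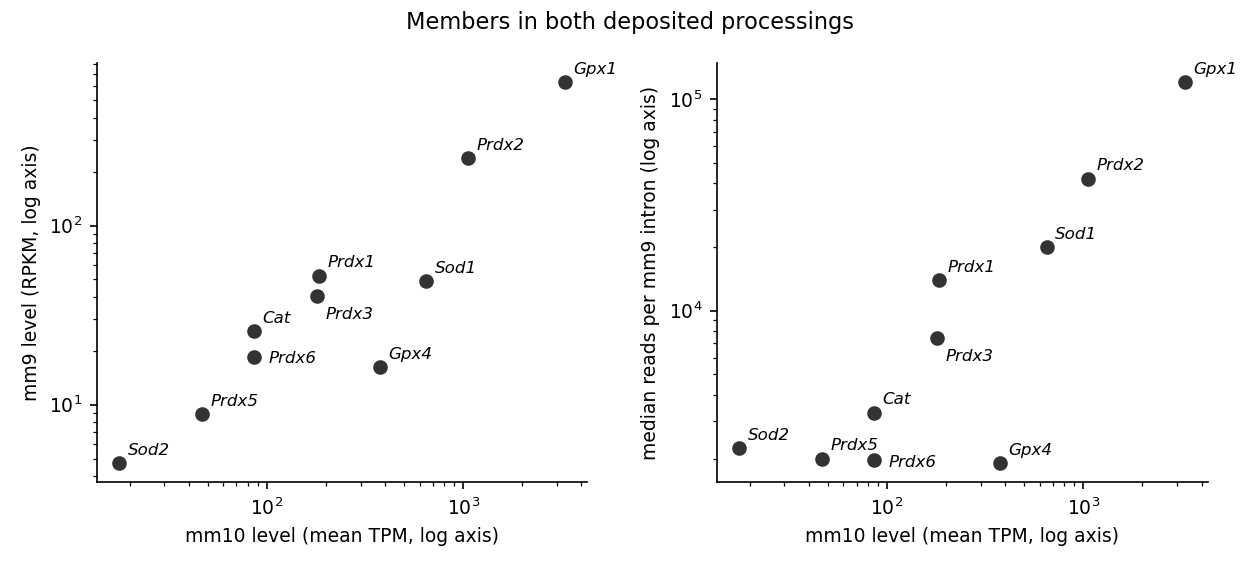
Each gene's mm9 level in RPKM (left) and its median junction reads per mm9 intron (right) against its mean mm10 level in TPM, all axes logarithmic. Gpx4 lies below genes of like TPM in both panels and Sod1 in the left panel, and Sod2 has the lowest TPM without the fewest junction reads.

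Other genes of the same chemistry were mostly lower. Of 73 further redox genes in 8 lists, 58 reached 1 TPM and 6 reached 100 TPM in both libraries, and of 65 tested between the libraries 1 was called higher in replicate 2, Gpx2, and 0 lower, against the background of 8.33%. Gpx2 had 11 counts in replicate 2 and 5 in replicate 1, with a log2 ratio of 1.71 and an adjusted p of 0.0334 in the exact binomial test. Within the enzymes' own families, Prdx4, the peroxiredoxin of the endoplasmic reticulum, had 74.9 TPM in replicate 2 and 80.7 TPM in replicate 1. Ccs, the copper chaperone of Sod1, had 21.1 TPM in replicate 2 and 32.6 TPM in replicate 1. Sod3, Gpx3, Gpx7 and Gpx8 were at means of 3.17, 9.26, 6.06 and 2.33 TPM, so Gpx1 and Gpx4 exceeded every other glutathione peroxidase. Gpx5, Prdx6b, G6pd2 and Nox3 were listed at 0 in both libraries.

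The genes of the systems around these enzymes had median levels of 18.5 TPM for the thioredoxin system, 19.95 TPM for glutathione, 35.4 TPM for NADPH supply, 13.5 TPM for selenoprotein synthesis, 15.1 TPM for the NRF2 axis and 0.29 TPM for the oxidant sources. Of each list the 3 highest are named here. The thioredoxins Txn1 and Txn2 averaged 147 and 128 TPM and the mitochondrial thioredoxin reductase Txnrd2 95.3 TPM. In glutathione metabolism the glutaredoxin Glrx5 averaged 326 TPM, the regulatory subunit of glutathione synthesis Gclm 109 TPM and the synthetase Gss 34.0 TPM. In the list for NADPH supply, Taldo1, Tkt and Idh2 averaged 201, 122 and 83.6 TPM. Of the genes around selenium, the plasma carrier Selenop averaged 239 TPM, Sephs2, which makes the selenium donor, 47.1 TPM and Selenbp1 43.1 TPM. Hmox1, Mafg and Nfe2l2 of the NRF2 axis averaged 84.8, 30.0 and 26.8 TPM, and Cyba, Ncf4 and Ncf1, subunits of the phagocyte oxidase that makes superoxide, 69.0, 27.0 and 8.63 TPM. In TPM Gpx1, Prdx2, Sod1 and Gpx4 each exceeded all of the 73 in both libraries. By expected counts, with no length correction, this held for Gpx1 and Prdx2, whereas Tkt and Selenop exceeded Sod1 and Gpx4 in both libraries.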

How the data were processed

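Stranded paired-end libraries of polyadenylated RNA over 200 nt were made from 2 biological replicates, per the labels. The genes and lists below were chosen with earlier results of these data known. For each library the authors deposited gene and transcript tables on mm10 with annotation M4; per the file headers they hold an expected count (estimated, so often not a whole number) beside TPM and FPKM, and for transcripts the percent of the gene's abundance. On mm9 the deposited tables give RPKM of 2 replicates without saying which library each is, so their mean was used. The deposited junction list gives a read count per junction and names no replicate. It was taken here as both libraries together. The aligner is not given in the sources used here. Of 43346 gene rows, 42462 received a symbol from GENCODE M21, whose GRCm38 build is that of mm10. Spike-ins (1.82% of counts in replicate 2, 2.84% in replicate 1) and phiX stayed out of library sizes and tests.

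A single group leaves edgeR's quasi-likelihood model nothing to contrast. Rounded expected counts of the libraries were set against each other in a two-sided exact binomial test with TMM sizes from edgeR 4.0.16. P-values were adjusted over genes with at least 10 counts, and 0.5 was added to counts for fold changes. The threshold was 2-fold with an adjusted p of 0.05. The test was checked on simulated Poisson counts. These hold no variation between replicates beyond counting error, so the check does not cover such variation. DESeq2 1.42.0 gave alternative size factors (R 4.3.3). Levels are means ± SD, n = 2. Junctions were matched to mm9 introns by exact position, and for transcripts without an mm9 model by intron length and a shared edge or exon length. Copies were sought with blastn 2.17.0 against GENCODE transcripts, with the leading coding transcript of each gene as query. Other steps ran in Python 3.11.15 with scipy 1.17.1, numpy 2.4.6, pandas 2.3.3 and matplotlib 3.10.9. All 10 genes were named; of the other redox lists the rule names the leading 3 by mean TPM, those called and those at 0. The pseudogene rule took Prdx6-ps2, listed at 0; other pseudogenes and overlapping neighbours were named after their values were seen. Alternatives covered library sizes, filters, tests, units, the mm9 tables and single replicates.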

Additional observations from a re-analysis of the deposited data

How the results depend on the processing

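No paired analysis was possible because there is 1 group, and leaving out a library ends the comparison of the 2. No gene of the 10 was called under any library size, count filter or edgeR test tried; without the fold minimum 9 were. Genes called, 1491 of all, came to 3887 with spike-in sizes, 10886 without the fold minimum, and 244 and 578 in edgeR's exact test with the dispersion of all tested genes and of the housekeeping genes. With spike-in sizes 92.7% of calls were higher in replicate 2, against 45.6% with TMM, and the median of all tested genes moved by 0.65. Other library sizes shift every gene's log2 ratio alike, so a member's place relative to the median could not change. The log2 ratios that turned from negative to positive were those of Gpx1 at 0.60, Prdx3 0.37, Prdx5 0.37, Prdx6 0.38, Sod1 0.40 and Sod2 0.33. On FPKM the ratios of Gpx1, Sod1 and Prdx1 turned to 0.0892, 0.0869 and -0.62, and on TPM those of Gpx4, Cat and Prdx1 to -0.0416, -0.0215 and -0.93. The percent of genes called was 8.33, and 3.52 of those with at least 10 TPM.

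The summed level of 5989 TPM was 12776 TPM without globins, 14284 TPM also without mitochondrial and spike-in rows, 7937 FPKM and 1082 RPKM on mm9, and 5569 and 6409 TPM in single libraries. Adding near-identical processed pseudogenes, an alternative chosen after seeing the data, gave 5994 TPM. The copies of Gpx4 have no deposited level, so nothing was added for Gpx4. The mean part of Gpx1 in the sum, 55.2% in TPM, was 44.2% in CPM and 58.1% on mm9. The log2 ratio of Gpx1 over Gpx4 was 2.89 in CPM and 5.28 on mm9, and 3.04 and 3.22 in single libraries. That of Sod1 over Sod2 was 2.02 in CPM and 3.37 on mm9, and 5.41 and 5.04 in single libraries. That of Prdx2 over Prdx1 was 1.93 in CPM and 2.18 on mm9, and 3.05 and 2.12 in single libraries. Members whose leading transcript held 50% of the abundance numbered 7 to 10 over the alternatives. Members whose leading transcript differed between the libraries numbered 2 by TPM and 0 by expected counts, an alternative also chosen after seeing the data.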
